A study of Mus musculus with 6 samples.

Results

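The glucocorticoid response genes described here are the glucocorticoid receptor gene Nr3c1 and 9 genes that the receptor is known to switch on in many tissues: Tsc22d3, Fkbp5, Sgk1, Mt1, Mt2, Klf9, Zbtb16, Dusp1 and Gadd45b. They were taken by gene symbol from the deposited gene table, which held all 10 among its 16140 genes, and all 10 had enough counts to be tested. The samples were 6 mouse livers profiled by poly(A)-selected bulk RNA-seq. The 3 knockouts had the genotype Selofl/fl Alb-Cre, in which the albumin promoter drives Cre recombinase in hepatocytes and removes Selenoo, which encodes SelO, a mitochondrial selenoprotein. The 3 controls were Selofl/fl without Cre, and the series title places all mice on a normal diet. Age, sex, feeding state, time of day at collection and hormone levels were not known here. Both groups carried the floxed alleles and only the knockouts carried Cre, so loss of SelO and presence of Cre cannot be told apart. Nothing in the labels states that each library is a separate animal, so the spread behind each p-value is that between these libraries and may be technical.

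Glucocorticoids, chiefly corticosterone in mice, enter cells and bind the glucocorticoid receptor, which HSP90 and immunophilins hold ready in the cytoplasm. The bound receptor moves to the nucleus and binds glucocorticoid response elements, paired AGAACA half-sites that face each other across a gap of 3 bases. In the liver it is known for inducing genes of amino acid breakdown and glucose output, and its targets include genes that restrain its own action, such as Fkbp5. Several of the 10 genes also answer to other signals: metallothioneins to zinc, Dusp1 and Gadd45b to cell stress, and Klf9 to thyroid hormone and the clock.

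Regulatory letters close to the start sites are shown first for the metallothionein pair and for Sgk1, since Mt2 was the member that passed the test, Mt1 is its neighbour and Sgk1 alone among the members held an exact receptor element in these windows. Sequences are RefSeq promoter windows on GRCm38, cut to the 250 bases upstream of an annotated transcript start and read 5′ to 3′ along the gene. Of the 9 target genes 8 had a window (15 windows in all, some genes having several starts), and Zbtb16 and Nr3c1 are not shown. Mt2 lay at chr8:94172368-94172617 and Mt1 at chr8:94178839-94179088, both on the plus strand, and the genes themselves are neighbours 5315 bases apart. Capitals mark cores of the metal response element, the site of the zinc sensor MTF1, searched on both strands as TGCACNC and TGCGCNC.
Mt2: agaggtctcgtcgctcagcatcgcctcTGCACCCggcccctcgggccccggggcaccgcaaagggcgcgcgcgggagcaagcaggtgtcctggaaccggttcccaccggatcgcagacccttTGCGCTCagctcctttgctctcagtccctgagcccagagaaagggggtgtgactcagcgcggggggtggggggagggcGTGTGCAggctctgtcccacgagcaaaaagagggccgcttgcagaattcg
Mt1: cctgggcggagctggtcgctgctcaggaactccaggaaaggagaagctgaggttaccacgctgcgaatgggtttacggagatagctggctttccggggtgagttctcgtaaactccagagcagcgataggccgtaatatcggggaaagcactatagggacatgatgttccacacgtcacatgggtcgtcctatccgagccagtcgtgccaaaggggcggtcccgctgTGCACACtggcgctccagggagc

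The Mt2 window held 3 metal response cores and the Mt1 window 1, while none of the other members' windows held any. Among 32851 windows of the same length, 21.4% held at least 1 such core and 1.26% held 3 or more. The Mt1 window lies upstream of one of the gene's starts, most of it inside the annotated span, so it does not cover all of its regulatory sequence. The exact glucocorticoid response element, both half-sites with their gap, was found in 3 of the 32851 windows (0.00913%), and one of those belongs to Sgk1. It is shown with its flanks at chr10:21993671-21993745 (plus strand), with the element in capitals, its first base 189 bases upstream of the start at 21993890.
Sgk1: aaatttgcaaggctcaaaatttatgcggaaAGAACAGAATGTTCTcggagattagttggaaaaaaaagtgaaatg
Sgk1 had more starts, and so more windows, than any other member, and its other windows held no exact element. The windows of the other members held none either. With up to 2 mismatches allowed, 1.56% of all windows held a match. Among the members' windows this added only another Sgk1 window, upstream of the start at 21986104. Such matches are descriptions of letters, and glucocorticoid receptor sites of many targets lie outside windows of this size. The Dusp1 window held 1 cAMP response element, searched as TGACGTCA and present in 1.55% of windows, which is shown at chr17:26508588-26508635 on the minus strand with that element in capitals.
Dusp1: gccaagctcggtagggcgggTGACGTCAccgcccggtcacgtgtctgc

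Library totals ran from 15550289 to 18680195 estimated counts. Selenoo, which checks the labels, was at 84.2 to 96.0 CPM in the controls and 6.29 to 9.31 CPM in the knockouts, where CPM is a gene's count relative to the library total, after scaling for composition (TMM). Defining hepatocyte genes such as Alb were abundant in all 6 libraries, and the summed level of 9 hepatocyte markers overlapped between the groups. Libraries differed in how abundance deviated with gene length: Spearman's rho across genes was -0.30 and -0.22 in control replicates 1 and 2, whereas control replicate 3 was at 0.28 and the knockout libraries at 0.27, 0.076 and 0.089.

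Of the 10 genes only Mt2 passed the threshold, an adjusted p of 0.05 from the quasi-likelihood test of edgeR, and it was higher in the knockouts. Over all 12173 genes tested, 1.49% passed in either direction and 0.772% were higher. With so few members, 1 call is a statement about Mt2 and not about the list. Fold changes were positive for 7 members and negative for 3, with a median log2 fold change of 0.34, against -0.02 over all genes tested, where 47.8% were positive. An unadjusted p under 0.05 was reached by 4 members (Mt2, Mt1, Sgk1 and Dusp1), and by 18.5% of all genes. The CPM of the groups did not overlap in the same 4, and did not overlap in 25.2% of all genes.

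**Figure D1:**
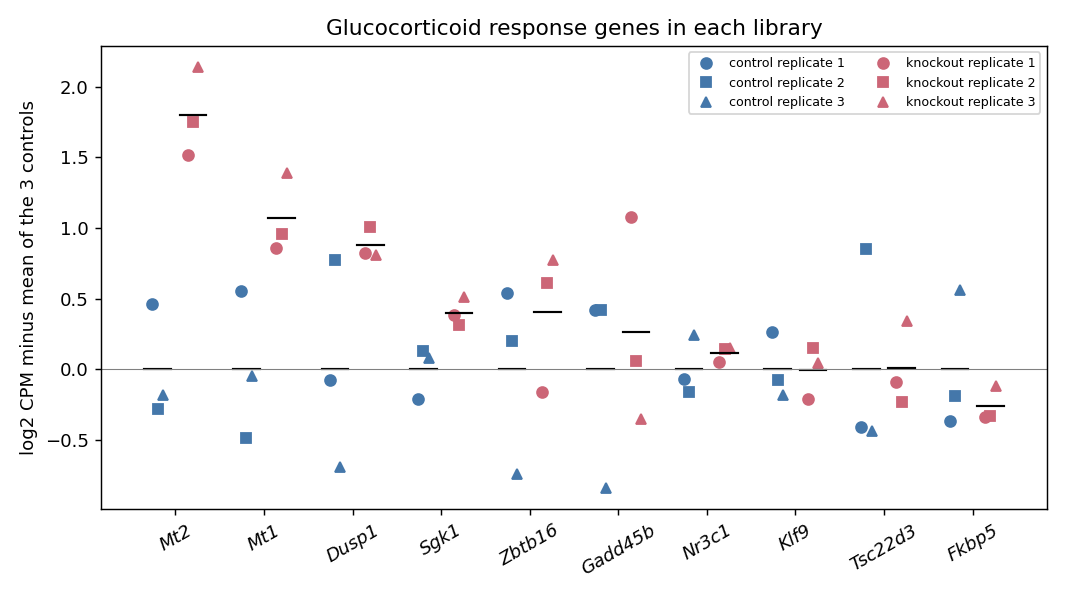
Log2 CPM of each glucocorticoid response gene in each library, measured from the mean of the 3 controls; blue marks are controls, red marks knockouts, shapes give the replicate number and black bars the group means. The 3 knockouts sit 1.52 to 2.14 above the control mean for Mt2, while Tsc22d3 and Fkbp5 each have 1 control library far above the others.

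Metallothioneins are small cysteine-rich proteins that bind zinc and copper and buffer these metals and oxidants. Mt2 (NCBI Gene 17750, GRCm38 chr8:94172618-94173567, plus strand) was at 96.4, 57.4 and 61.8 CPM in the controls and 201, 235 and 309 CPM in the knockouts. Every knockout library was far above the highest control. The log2 fold change was 1.79 ± 0.24 (SE), a 3.46-fold rise with a 95% interval of 2.39 to 5.0 fold, and an adjusted p of 0.0106 in edgeR. Mt2 kept an adjusted p under 0.05 under each of the 18 alternative settings, with log2 fold changes of 1.6 to 2.06. Its adjusted p ran from 1.14e-11 (DESeq2) to 0.0451 (replicate number as a block). Of these settings, a looser threshold of 0.1 on the same fit could not have dropped Mt2.

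Mt1 (NCBI Gene 17748, chr8:94178883-94180327, plus strand) was at 433, 211 and 286 CPM in the controls and 537, 577 and 777 CPM in the knockouts. The groups did not overlap, although the highest control came close to the lowest knockout. Its log2 fold change was 1.02 ± 0.26 (SE), 2.03-fold with an interval of 1.36 to 3.05 fold, and with an adjusted p of 0.0888 it did not pass in edgeR. DESeq2, which called 5.26% of the 12057 genes to which it gave an adjusted p, called Mt1 at an adjusted p of 0.00254. The authors' deposited q value for Mt1, 0.00336, was also from DESeq2 and so is not a separate test. In edgeR Mt1 also passed without control replicate 1 (1.34, adjusted p = 0.0163), the control with the highest level, and with each library's length trend removed (1.26, adjusted p = 0.0217). Under 14 of the 18 alternatives Mt1 did not pass, with an adjusted p of up to 0.281 (edgeR without knockout replicate 3). Over all alternatives its log2 fold change was 0.81 to 1.34.

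On the authors' TPM scale, which is per transcript length and so allows levels of different genes to be compared, Mt1 and Mt2 were the most abundant members in both groups. Mt1 averaged 1268 ± 304 TPM (SD, n = 3) in the controls and 2711 ± 458 TPM in the knockouts, and Mt2 averaged 283 ± 41.4 and 1024 ± 191 TPM. The sum of the pair was 1181 to 1860 TPM in the controls and 3328 to 4481 TPM in the knockouts.

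The ratio of the 2 metallothioneins was also compared. Within each library, Mt1 TPM divided by Mt2 TPM was 4.69, 3.83 and 4.82 for controls against 2.79, 2.56 and 2.61 for knockouts, a comparison chosen after the values were seen. Mt2 thus made up 17.2% to 20.7% of the pair in the controls and 26.4% to 28.1% in the knockouts. The mean log2 ratio was lower by 0.74 in the knockouts, with no overlap between groups (exact two-sided permutation test, p = 0.1, which is the smallest p that 3 against 3 libraries allow). A ratio within a library does not depend on how libraries are scaled. The genes are similar in sequence, and how the counting divided any shared reads between them is not given in the sources used here.

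**Figure D2:**
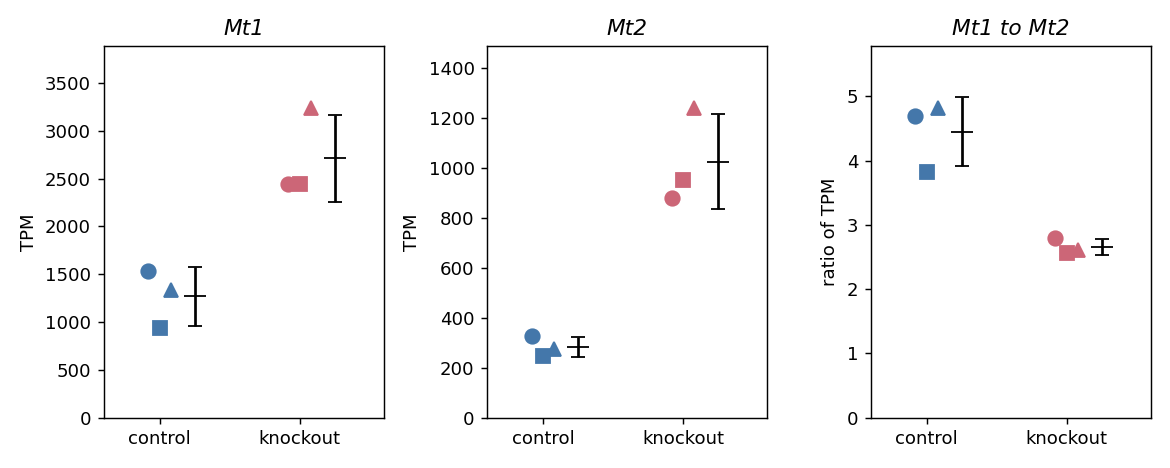
TPM of Mt1 and Mt2 and the ratio of Mt1 to Mt2 TPM in each library; circles, squares and triangles are replicates 1, 2 and 3, and the bars give the mean and SD of 3 libraries. Both genes are higher in every knockout than in any control, and the ratio is 3.83 to 4.82 in the controls against 2.56 to 2.79 in the knockouts.

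In a list of metallothioneins and zinc genes, 1 of 8 tested rose (Mt2) and none fell, with a median log2 fold change of 0.10. At an unadjusted p under 0.05 there were 2 higher, the metallothionein pair, and 1 lower. Mtf1, the zinc sensor, averaged 13.6 ± 2.19 CPM (SD, n = 3) in the controls and 12.2 ± 0.938 CPM in the knockouts (adjusted p = 0.618 in edgeR). The zinc exporter gene Slc30a1, itself a known MTF1 target, was at 17.7, 17.6 and 28.7 CPM against 33.9, 27.0 and 23.8 CPM, with overlapping groups (adjusted p = 0.353). Mt3, the brain form, had 0.103 CPM in 1 control and no counts in the other libraries, where 3 counts, the limit that a count of 0 allows, would be 0.156 to 0.201 CPM, and it was not tested.

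Among all tested genes outside predicted models, the 3 whose library-to-library profile was most like that of Mt2 were Plk3, Adra1a and Fam222a, by the root mean square difference in centred log2 CPM over the 6 libraries (0.27, 0.30 and 0.33). Plk3 encodes a stress-responsive kinase and Adra1a the alpha-1A adrenergic receptor. Mt1 ranked 10 in that order, with a difference of 0.38. The measure includes the difference between the groups, so likeness here is in part a similar fold change. Log2 fold changes were 1.55 for Plk3, 1.44 for Adra1a and 1.59 for Fam222a.

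The receptor gene itself differed little. Nr3c1 (NCBI Gene 14815) was at 38.9, 36.6 and 48.2 CPM in the controls and 42.3, 45.1 and 45.4 CPM in the knockouts, so that the knockouts lay within the range of the controls. Its log2 fold change was 0.10 ± 0.14 (SE), with a 95% interval of 0.866 to 1.33 fold and an adjusted p of 0.718 in edgeR. The difference was within the spread between replicates.

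Fkbp5 encodes FKBP51, an immunophilin that binds the receptor complex and lowers its affinity for hormone, and its induction is a feedback brake. By RefSeq it lies at chr17:28398753-28486149. It was at 92.5, 105 and 177 CPM in the controls and 94.7, 95.5 and 111 CPM in the knockouts. Control replicate 3 stood above the other 5 libraries, which ran from 92.5 to 111 CPM. The log2 fold change was -0.32 ± 0.23 (SE, adjusted p = 0.480 in edgeR, 95% interval 0.562 to 1.15 fold), and without control replicate 3 it was 0.02.

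Tsc22d3 encodes GILZ, a leucine zipper protein that carries part of the anti-inflammatory action of glucocorticoids, and lies at chrX:140539528-140600522 on the minus strand. Its level was 52.2, 126 and 51.1 CPM in the controls and 65.4, 59.4 and 88.2 CPM in the knockouts. Control replicate 2 was the highest of the 6, and the knockouts all lay between it and the other controls. The log2 fold change of -0.11 ± 0.33 (SE, adjusted p = 0.886 in edgeR, 95% interval 0.554 to 1.56 fold) became 0.46 without control replicate 2 (adjusted p = 0.358). The control that stood high was thus a different library for Tsc22d3 than for Fkbp5.

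Klf9 and Zbtb16 are the transcription factors among the targets. Klf9, a Kruppel-like repressor (chr19:23141226-23168129), was at 126, 99.9 and 93.6 CPM in the controls and 91.1, 118 and 108 CPM in the knockouts, with overlapping groups. Its log2 fold change was -0.01 ± 0.16 (SE, adjusted p = 0.979 in edgeR) and the 95% interval ran from 0.772 to 1.28 fold. Zbtb16, which encodes the BTB zinc finger protein PLZF (chr9:48651797-48836225), was at 36.2, 28.6 and 14.9 CPM against 22.2, 38.2 and 42.7 CPM. Both groups were widely spread and overlapped, with a log2 fold change of 0.37 ± 0.32 (SE, adjusted p = 0.553, 95% interval 0.785 to 2.14 fold), which was 0.09 without control replicate 3, the lowest library.

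The kinase gene Sgk1, whose product promotes sodium channel and transporter activity (chr10:21882184-21999903), was at 11.5, 14.5 and 14.1 CPM in the controls and 17.3, 16.5 and 18.9 CPM in the knockouts. The groups did not overlap, but the difference was small: the log2 fold change was 0.39 ± 0.14 (SE), 1.31-fold with a 95% interval of 1.05 to 1.64 fold and an adjusted p of 0.189 in edgeR. It passed under none of the 18 alternatives, including DESeq2 (adjusted p = 0.225), and stayed between 0.30 and 0.46 on the log2 scale.

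Dusp1 encodes the phosphatase MKP-1, which switches off p38 and JNK kinases, and lies at chr17:26505591-26508472 on the minus strand. It was at 24.1, 43.7 and 15.7 CPM in the controls and 44.9, 51.3 and 44.9 CPM in the knockouts. The knockouts were close together, whereas the controls ranged widely and control replicate 2 nearly reached the knockouts; on the TPM scale, at 33.6 against 31.9 to 36.7, it overlapped them. The log2 fold change was 0.76 ± 0.30 (SE, 1.69-fold, 95% interval 1.05 to 2.71 fold) with an adjusted p of 0.227 in edgeR. Without control replicate 2 it was 1.24 and passed (adjusted p = 0.0478), and under the other alternatives it did not.

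Gadd45b, a stress-induced gene of growth arrest and DNA demethylation (chr10:80930091-80932204), was the least abundant member, with estimated counts of 43, 56 and 22 for controls against 86, 39 and 29 for knockouts. Knockout replicate 1 was the highest library, and the other knockouts lay within the range of the controls. The log2 fold change of 0.31 ± 0.44 (SE, adjusted p = 0.733 in edgeR) had a 95% interval of 0.623 to 2.48 fold, which includes a 2-fold rise. Without knockout replicate 1 the log2 fold change was -0.24.

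**Figure D3:**
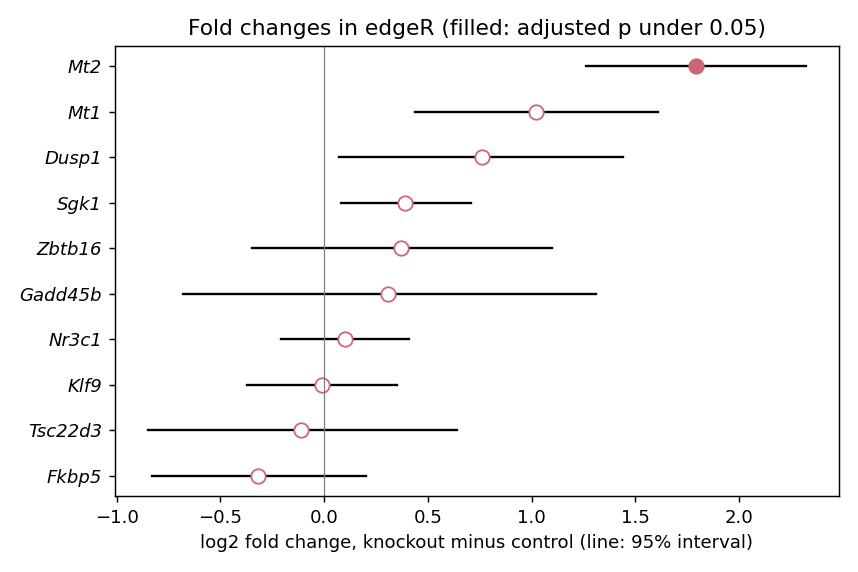
Log2 fold change of each member, knockout minus control, from edgeR's fit over all genes; lines are 95% intervals and the filled point passed an adjusted p of 0.05. Mt2 is at 1.79 and Mt1 at 1.02, the intervals of Dusp1 and Sgk1 also lie above 0 before adjustment, and those of the other 6 cross 0.

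The libraries ranked the members differently. Measured from the control mean in log2 CPM, control replicate 1 was the highest control for Mt1 (0.55), Mt2 (0.46), Klf9 (0.26) and Zbtb16 (0.54). Control replicate 2 was the highest for Tsc22d3 (0.85) and Dusp1 (0.77) but the lowest for Mt1 (-0.49) and Mt2 (-0.28). Control replicate 3 was the highest for Fkbp5 (0.56) and Nr3c1 (0.24). It was the lowest for Zbtb16 (-0.74), Dusp1 (-0.69), Gadd45b (-0.84), Tsc22d3 (-0.44) and Klf9 (-0.18). In the controls, therefore, the 10 genes did not share a single order of the libraries. Some pairs did share an order: Mt1 with Mt2, Klf9 with Zbtb16, and Tsc22d3 with Dusp1. This spread between libraries may be technical.

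In TPM the order of mean levels in the controls was Mt1, Mt2, Fkbp5 (43.5), Tsc22d3 (42.7), Klf9 (30.6), Dusp1 (20.4), Nr3c1 (8.31), Sgk1 (7.42), Zbtb16 (4.32) and Gadd45b (2.73). The ranges of neighbours in this order overlapped for Fkbp5 with Tsc22d3, Tsc22d3 with Klf9, Klf9 with Dusp1, Nr3c1 with Sgk1 and Zbtb16 with Gadd45b. In the knockouts Dusp1 moved from rank 6 to rank 4, at 34.6 TPM, among Tsc22d3 (39.9), Fkbp5 (34.2) and Klf9 (30.9). Only the 2 metallothioneins were apart from every other member in both groups.

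Proteins that fold the receptor or act with it were described from a list of 20 chaperone and coregulator genes. None passed in either direction in edgeR or limma-voom, and 1 was higher and 4 lower at an unadjusted p under 0.05 in edgeR, with a median log2 fold change of -0.13. DESeq2 called 3 lower: Stip1 (adjusted p = 0.00686), Hspa8 (adjusted p = 0.0132) and Hsp90aa1 (adjusted p = 0.0342). Hsp90aa1, an inducible HSP90 gene, was at 305, 231 and 181 CPM in the controls and 159, 150 and 155 CPM in the knockouts. The knockouts lay below every control, but the difference did not pass in edgeR (-0.63 ± 0.19, log2 and SE, adjusted p = 0.128).

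Of 7 tested genes that activate, break down or carry glucocorticoids, 1 rose and none fell in edgeR. DESeq2 called 2 of them higher and none lower. Srd5a1, the steroid 5-alpha-reductase that reduces corticosterone among other steroids, was at 61.1, 58.3 and 56.3 CPM in the controls and 107, 178 and 116 CPM in the knockouts. Its log2 fold change was 1.19 ± 0.20 (SE, adjusted p = 0.0233 in edgeR). Hsd11b1, the enzyme that regenerates active hormone in the liver, was at 723, 534 and 491 CPM against 463, 592 and 624 CPM (-0.06 ± 0.19, adjusted p = 0.889). Serpina6, the hormone's carrier protein in blood, was at 415 ± 134 and 417 ± 125 CPM (SD, n = 3).

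A list of 35 further genes known to be induced by glucocorticoids, in liver or elsewhere, had 34 tested members, of which 7 rose and 1 fell. The median log2 fold change was 0.31, and 25 were positive and 9 negative. Over all genes tested 1.49% passed and 47.8% were positive, with a median of -0.02. DESeq2, which called 5.26% of genes, called 10 of the list higher and 1 lower. The genes that rose in edgeR were Igfbp1, Pdk4, Ppargc1a, G6pc, Tat, Txnip and Pck1, most of them genes of the fasted liver that other hormones also control. Tat, tyrosine aminotransferase, was at 1004, 1466 and 771 CPM in the controls and 2780, 2623 and 3666 CPM in the knockouts (1.48 ± 0.25, log2 and SE, adjusted p = 0.0241 in edgeR). Lcn2, an acute phase gene, fell (-2.09 ± 0.27, adjusted p = 0.0101). The list was drawn up with earlier results of these data known, so its count is not independent evidence of a direction.

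Among the genes of that list that did not pass in edgeR were Per1 and Tdo2, picked after their values were seen. DESeq2 called others of them higher: Cebpb (adjusted p = 0.00891), Errfi1 (adjusted p = 0.0208) and Irs2 (adjusted p = 0.0448). Per1, a clock gene with a well-known receptor element, was at 41.4, 51.4 and 44.0 CPM in the controls and 43.8, 34.3 and 49.1 CPM in the knockouts (-0.11 ± 0.16, adjusted p = 0.751 in edgeR). Tdo2, tryptophan dioxygenase, was at 913 ± 70.0 and 1066 ± 73.8 CPM (SD, n = 3, adjusted p = 0.419 in edgeR). The CPM of its groups did not overlap, as in 25.2% of all genes tested.

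**Figure D4:**
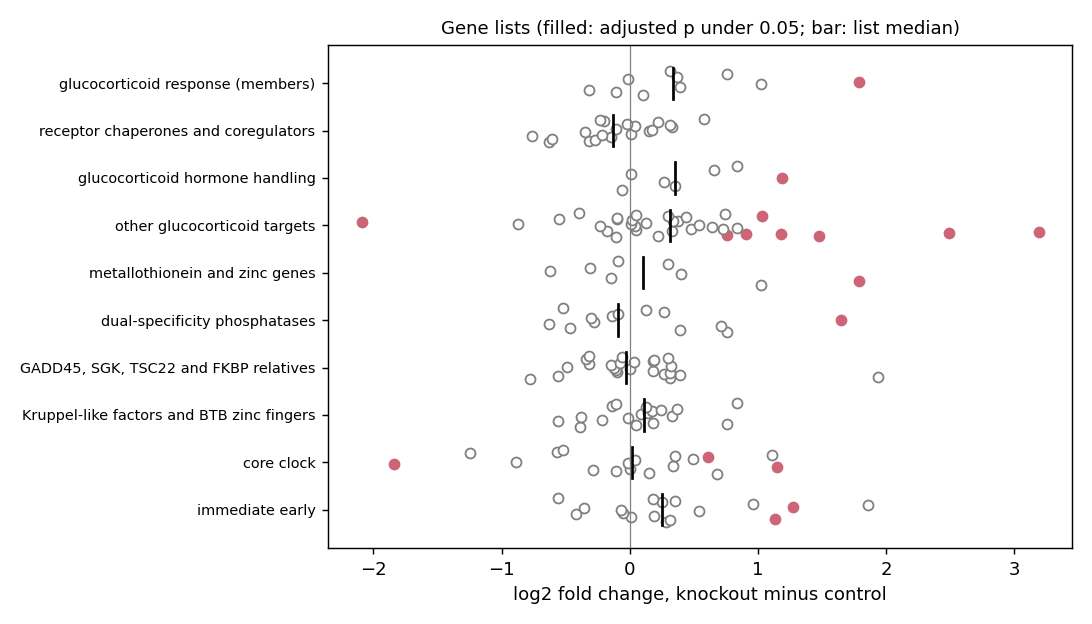
Log2 fold change, knockout minus control, of the tested genes in each list; filled points passed an adjusted p of 0.05 in edgeR and black bars are list medians. The glucocorticoid response genes have 1 filled point, Mt2, while the list of other glucocorticoid targets has 8, of which 7 are higher.

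Relatives of the members mostly did not pass. Of 13 tested dual-specificity phosphatases 1 rose, Dusp8, which was at 0.671, 0.723 and 0.830 CPM in the controls and 2.20, 1.77 and 3.07 CPM in the knockouts (1.65 ± 0.31, log2 and SE, adjusted p = 0.0360 in edgeR), and limma-voom called none. None of 24 GADD45, SGK, TSC22 and FKBP genes passed in edgeR (2 higher and 1 lower at an unadjusted p under 0.05, members included), DESeq2 or limma-voom. None of 18 Kruppel-like factors and BTB zinc fingers passed in edgeR (1 higher and 1 lower unadjusted) or limma-voom, and DESeq2 called 1 higher, Klf3 (adjusted p = 0.0101).

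Clock and immediate early genes, some of which answer to the same signals as members, were counted beside the 1.49% of all genes that passed. Of 18 tested clock genes 2 rose and 1 fell: Cry1, at 7.05 to 9.39 CPM in the controls and 16.3 to 19.2 CPM in the knockouts (adjusted p = 0.0124 in edgeR), and Nfil3 (0.61 ± 0.12, log2 and SE, adjusted p = 0.0436) rose, while the clock repressor Nr1d1 fell from 114, 109 and 82.8 CPM in the controls to 46.6, 23.6 and 14.7 CPM in the knockouts (-1.84 ± 0.35, adjusted p = 0.0413). The median log2 fold change of the clock list was 0.02, with 10 positive and 8 negative. Of 17 tested immediate early genes 2 rose, Jun (1.13 ± 0.13, adjusted p = 0.00822) and Btg2 (1.27 ± 0.21, adjusted p = 0.0225). Their part in the result for Mt2 was not tested.

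In bulk tissue, fewer cells of a type and less RNA per cell cannot be told apart. The summed level of 10 T, NK and B cell markers was 15.1 to 29.5 CPM in the controls and 6.19 to 9.43 CPM in the knockouts, and of 8 tested all had negative fold changes, with 1 fall (Jchain) in edgeR, 2 in DESeq2 and none in limma-voom. Neutrophil markers summed to 2.07 to 2.79 CPM and 0.852 to 1.29 CPM (6 genes). Only 1 of these genes had enough counts to be tested, and it did not pass in edgeR, DESeq2 or limma-voom. All 10 Kupffer cell and macrophage markers had negative fold changes and none passed in edgeR (2 lower at an unadjusted p under 0.05), DESeq2 or limma-voom, with overlapping sums of 338 to 494 and 345 to 394 CPM. The 9 endothelial markers summed to 361 to 397 and 309 to 379 CPM, and 1 fell (Lyve1). Sums of stellate, bile duct and adipocyte markers also overlapped, and 1 of the 9 hepatocyte markers rose (Serpina1a). No listed marker in the table was at 0 in every library. The part of these cells in the members' levels was not tested.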

How the data were processed

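The gene table of 3 knockout and 3 control livers was used. The submitters' processing notes name RSEM 1.3.1, HISAT2, Bowtie2 and GRCm38; no source here gives the strand setting. Estimated counts, FPKM and TPM per library were deposited by the authors. Per the file headers, the table also holds each gene's log2 fold change and its p-value and q-value from DESeq2. Library columns were matched by group and number (controls are headed WT).

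Estimated counts were rounded (4.70% to 5.12% were not whole), filtered with filterByExpr (12173 genes left) and scaled with TMM factors. edgeR 4.0.16 in R 4.3.3 (quasi-likelihood F test, genotype only) gave p-values adjusted over all genes by Benjamini-Hochberg, and SEs came from its F statistic. The script was tested on simulated data. All pairs of libraries differed by more than sampling noise (chi-square/df 18.9 or more). Counting limits cover counting error only, as PCR copies are not separate molecules.

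Alternatives covered other scaling (DESeq2, upper quartile), filters (none, 1 CPM in 3 libraries), the replicate block, each library's length trend removed, each library left out, DESeq2 1.42.0, limma 3.58.1 (voom, log2(FPKM + 1), log2(FPKM + 0.1), log2(TPM + 1)) and an adjusted p of 0.1. The members and lists were chosen with earlier results of these data known. All members were named, and from each list the called genes, at most 6 by smallest p; the 3 genes most like each called member were added. Hsp90aa1, Hsd11b1, Serpina6, Mtf1, Slc30a1, Mt3, Per1, Tdo2, Nr3c2, Hspa8, Stip1, Klf3, Txnip, Pck1 and Gadd45g fell outside this rule and were chosen after their values were seen. The same holds for Cebpb, Errfi1, Irs2 and Gadd45a.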

Additional observations from a re-analysis of the deposited data

How the results depend on the processing

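Mt2 was called higher under all 18 alternatives, and no member was called lower under any. Among these, the adjusted p of 0.1 is a looser threshold on the same fit, which Mt2 could not fail. The members called, 1 with the settings reported, were 2 with DESeq2, with the length trend removed and at an adjusted p of 0.1 (Mt2 and Mt1), and 1 to 2 with single libraries left out: Mt1 joined without control replicate 1 and Dusp1 without control replicate 2. Over all genes the 181 calls became 330 without the low-count filter, 277 with the length trend removed, 634 with DESeq2, 110 on log2(FPKM + 1), 79 on log2(TPM + 1), 513 at an adjusted p of 0.1, and 43 to 668 with 1 library left out. With the replicate number as a block they were 87; same-numbered libraries deviated with r of -0.16, -0.0786 and -0.076, so the numbers were not taken as pairs.

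Members that did not pass changed sign in places. Tsc22d3 was 0.02 with the replicate block, 0.01 with limma-voom, 0.05 on log2(TPM + 1), and -0.33 to 0.46 with 1 library left out. Klf9 was 0.01 on log2(TPM + 1) and -0.09 to 0.13 with 1 library left out. Fkbp5 ran from -0.49 to 0.02 and Gadd45b from -0.24 to 0.58 in that way. The cause was not tested. The log2 Mt1 to Mt2 ratio stayed lower in the knockouts with any 1 library left out. Because the groups did not overlap, no other outcome was possible, so this is not a separate check. Precision was lowest for Gadd45b (22 to 86 counts per library), Tsc22d3 and Zbtb16, whose SEs were 0.44, 0.33 and 0.32 against a median of 0.18 over all genes.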

Other observations

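The genes below are some of the relatives of the receptor and of the members that did not pass in edgeR, picked after their values were seen. The CPM of the groups overlapped for Nr3c2 and did not overlap for Gadd45g, Gadd45a and Hspa8. Groups without overlap were also seen in other relatives, and in 25.2% of all genes tested. Gadd45g, a stress-induced relative of Gadd45b, was at 30.7, 17.9 and 3.99 CPM in the controls and 69.9, 90.9 and 39.3 CPM in the knockouts, with a log2 fold change of 1.94 ± 0.57 (SE, adjusted p = 0.122 in edgeR). Gadd45a, another relative, went the other way, from 1.68, 1.81 and 1.87 CPM to 1.29, 0.743 and 1.08 CPM (-0.78 ± 0.28, adjusted p = 0.194 in edgeR). Nr3c2, the mineralocorticoid receptor gene, which also binds corticosterone, was at 4.70, 6.46 and 5.29 CPM against 6.39, 9.26 and 9.09 CPM (0.58 ± 0.20, adjusted p = 0.170). Hspa8, the constitutive HSP70 gene that helps load the receptor onto HSP90, was at 3223, 1968 and 1854 CPM against 1297, 1432 and 1417 CPM (-0.76 ± 0.22, adjusted p = 0.113, and 0.0132 in DESeq2).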
